A study of Mus musculus with 6 samples.

Results

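Cell cycle genes were followed in mouse embryos that arose without sperm. The set held 44 genes, measured by 62 probes, out of 4742 genes (21921 probes) compared. A gene belonged to it when its probes were annotated with exactly 1 symbol that names a cyclin, a Cdk or Cdc gene, an MCM or origin recognition subunit, a centromere protein, a numbered kinesin, an Aurora or Polo kinase, a Bub or Mad2-like checkpoint gene or an anaphase-promoting complex subunit, or that is Prc1. Cdc40 and Cdc42 were left out because their products act elsewhere. Where several probes measured a gene their mean was used, and 1 probe of Ccnd2 that read exactly 0 on all 6 arrays was dropped. Apart from that probe, the rule reads symbols and no measured value. Prc1 was added by name, however, and the members were chosen with earlier results of these data known. Counts of members below therefore only describe this list. Sorted by textbook role, 4 genes act in DNA replication, 20 in mitosis, 7 are cyclins or their kinases, and 13 carry a matching name but mainly act elsewhere.

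Eggs waiting at metaphase II of meiosis were activated with cycloheximide, an inhibitor of protein synthesis that starts development without a calcium signal, or with strontium chloride, which makes the egg release calcium in repeated waves. All eggs of both groups also received cytochalasin D, which blocks actin assembly and so keeps the chromosomes of the polar body in the egg. The embryos spent 60 h in KSOM medium, and mRNA equivalent to 25 embryos went on each array, with 3 arrays per group. The labels do not give the mouse strain, the age of the females or the stage the embryos had reached, nor whether arrays of a group came from separate collections of eggs, so p-values here reflect no more than the scatter of these particular samples, part of which may be technical. The title of the series asks whether a missing calcium signal changes later gene expression.

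Each array carried embryo RNA and a commercial mouse reference RNA in different dyes, and values are log2 ratios of embryo over reference. This direction is likely but not stated with the values: it rests on the dyes in the labels and on the scanner software's convention, and every sign would turn if it were the opposite. A ratio does not compare the abundance of different genes, because it depends on the reference as much as on the embryo. RNA was pooled from whole embryos, so fewer cells of a type and less RNA per cell cannot be told apart. Differences between groups are cycloheximide minus strontium.

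As background, a cell copies its DNA once in each cycle. The origin recognition complex marks start sites, Cdc6 and its partners load the ring-shaped MCM helicase there, and the kinase Cdc7 fires the loaded helicase. Mitosis then divides the copies: kinetochores built on centromeres hold chromosomes to the spindle, the checkpoint waits until all are attached, and the anaphase-promoting complex with Cdc20 starts separation by marking cyclin B and securin for destruction. Early embryos cycle on transcripts stored in the egg before their own genome takes over. In dividing somatic cells, E2F factors drive replication genes, while a complex that binds the CHR element drives many mitotic genes, often together with the CCAAT box factor NF-Y.

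The promoters of these genes are shown first because their motifs were not part of how the genes were chosen. Promoter sequences from RefSeq (GRCm38.p6, 250 bases before to 50 after each start) matched 39 of the 44 genes, with 46 start sites. Motifs were searched on both strands: for E2F TTTCCCGC, TTTGGCGC, TTTGCCGC and TTTCGCGC, for CHR TTTGAA and TTCGAA, and CCAAT itself. In the 6 stretches that follow, which run 5′ to 3′ on the gene's strand from 150 bases before the start to 30 after it, capitals mark any of these matches. They cover the members with the largest differences between the groups in the mitosis class (Prc1, Mad2l1) and the replication class (Cdc7, Mcm3), and 2 central regulators of mitosis (Cdc20, Cdk1). For Prc1 and Cdc7, which have 2 start sites each, the stretch of the first is printed.
Prc1, chr7:80294301-80294480, plus strand: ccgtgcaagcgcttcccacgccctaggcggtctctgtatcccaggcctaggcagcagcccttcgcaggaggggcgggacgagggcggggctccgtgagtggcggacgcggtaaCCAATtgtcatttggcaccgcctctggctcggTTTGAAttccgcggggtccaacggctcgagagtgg
Mad2l1, chr6:66535071-66535250, plus strand: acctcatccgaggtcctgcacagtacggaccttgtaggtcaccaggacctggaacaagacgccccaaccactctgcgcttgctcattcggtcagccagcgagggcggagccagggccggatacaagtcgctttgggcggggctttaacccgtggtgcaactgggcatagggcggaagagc
Cdc7, chr5:106964172-106964351, plus strand: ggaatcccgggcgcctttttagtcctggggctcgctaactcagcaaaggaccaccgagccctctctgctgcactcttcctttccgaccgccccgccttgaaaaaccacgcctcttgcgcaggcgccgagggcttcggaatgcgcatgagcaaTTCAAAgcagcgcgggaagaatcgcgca
Mcm3, chr1:20820283-20820462, minus strand: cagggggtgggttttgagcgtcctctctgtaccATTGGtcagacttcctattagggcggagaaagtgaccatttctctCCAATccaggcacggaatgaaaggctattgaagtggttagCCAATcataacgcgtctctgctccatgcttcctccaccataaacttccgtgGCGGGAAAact
Cdc20, chr4:118437314-118437493, minus strand: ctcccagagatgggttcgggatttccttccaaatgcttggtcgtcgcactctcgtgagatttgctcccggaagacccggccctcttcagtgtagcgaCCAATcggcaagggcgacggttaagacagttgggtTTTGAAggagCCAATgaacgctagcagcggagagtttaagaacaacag
Cdk1, chr10:69352883-69353062, minus strand: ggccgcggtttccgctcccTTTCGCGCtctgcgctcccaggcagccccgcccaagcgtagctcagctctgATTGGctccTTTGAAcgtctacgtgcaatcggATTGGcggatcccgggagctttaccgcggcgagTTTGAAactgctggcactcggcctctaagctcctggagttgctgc

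An E2F match stood in 7 of the 46 member promoters, or 15.2%. By class these were 4 of the 22 promoters of mitosis genes (18.2%), 1 of the 7 of replication genes and 2 of the 6 of cyclins and their kinases. E2F matches stood in 3.49% of the 4934 promoters of genes compared on the arrays and in 2.26% of all 32851 promoters in the table. A CHR match stood in 9 of the 22 promoters of mitosis genes (40.9%), in 3 of the 7 of replication genes, in 14.6% of those of compared genes and in 19.2% of all promoters. CCAAT stood in 13 of the 22 promoters of mitosis genes (59.1%), in 36.8% of those of compared genes and in 37.4% of all. The median GC content was 61.3% in member promoters, 59.7% in those of compared genes and 52.7% in all. Start sites of a gene can lie close together, so promoters of a gene are not independent. The 2 promoters of Prc1 share 1 CHR match, as do the 2 of Cdc7, and each such match is counted for both promoters. In 1 promoter, that of Cenpw, a CHR and a CCAAT match overlapped. For 7 of the 8 mitosis genes with a CHR match, it fell between 30 bases before the start and 50 after it: Aurka, Bub1, Cdc20, Cenpa, Cenpf, Cenpw and Prc1. How often a CHR match falls in this stretch in other promoters was not counted here, so nothing is read from the position. None of the 11 promoters of genes acting mainly elsewhere held an E2F or CHR match. The 8 mitosis genes with a CHR match went both ways between the groups, 3 above 0 and 5 below, from -0.45 to 0.95 with a median of -0.13. The 11 without one lay between -0.65 and 0.85 with a median of 0.13. Split by E2F instead, the 4 mitosis genes with a match had a median of 0.38, 3 above 0 and 1 below. The 15 without an E2F match had a median of -0.08. Over all members with a promoter the medians were alike, -0.07 for the 7 with an E2F match and -0.06 for the 32 without. In replication the order was the opposite: Mcm3, the 1 gene with a match, lay at -0.43, and the median of the 3 without was 0.18. All motif matches given here are matches of letters only.

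**Figure D1:**
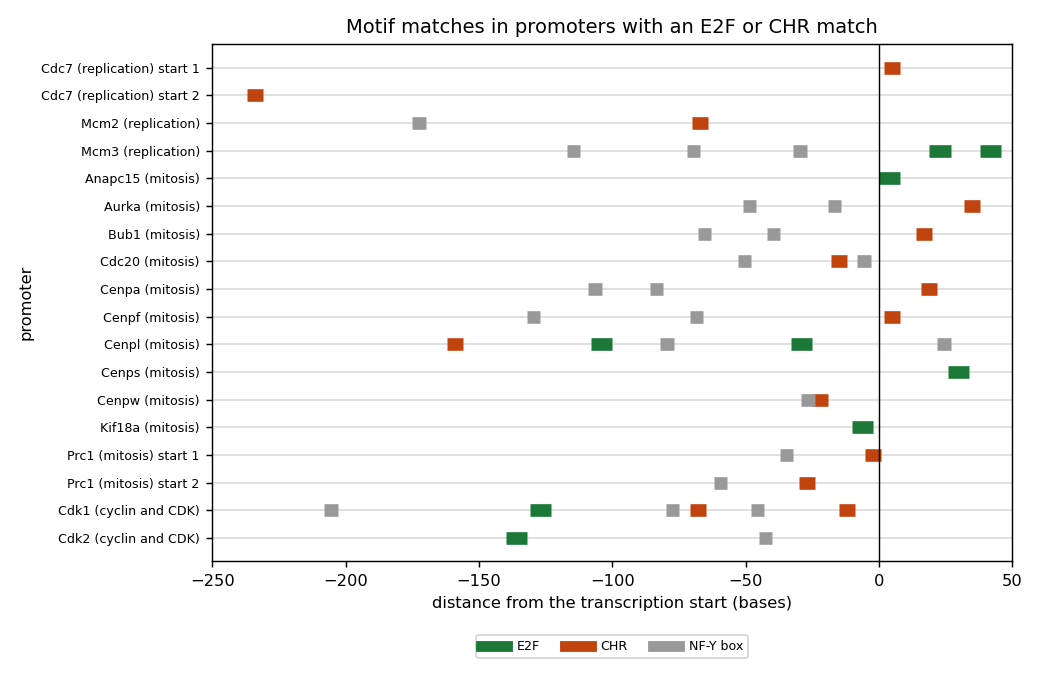
Positions of motif matches in the 18 member promoters that held an E2F or CHR match, as distance in bases from the transcription start (0); grey marks labelled NF-Y box are CCAAT matches. The CHR matches of Cdc20, Prc1, Cenpf, Cenpa, Bub1, Aurka and Cenpw lie close to the start, as does a CHR match each of Cdk1 and of the first start of Cdc7. Counted from the second start of Cdc7, the same match lies at -237. Mcm3 has both E2F and CCAAT matches near the start.

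None of the 44 genes passed the test between cycloheximide and strontium embryos. By limma with Benjamini-Hochberg adjustment over all 4742 genes, 0 members were higher and 0 lower at a threshold of 0.05 (lowest adjusted p = 0.717), as for all genes (0%). At an unadjusted p under 0.05, 2 members lay higher, Prc1 and Mad2l1, and 0 lower; 2 of 44 is 4.55%, beside 6.64% of all genes (4.28% higher, 2.36% lower). Without array 3 of cycloheximide, which stood apart, these were 3 members higher and 1 lower (9.09%), while the counts over all genes were 349 higher and 543 lower (18.8%), so the balance of directions over all genes turned. Over single probes 3 of the 62 were higher at that level, those of Prc1 and Mad2l1 and 1 of Cdc7, and 1 was lower, of Cdk10, beside 3.7% and 2.32% of all probes. By limma 0 of the 62 passed after adjustment. For 5 members, or 11.4%, every array of a group lay on the same side of every array of the other, beside 11.9% of all genes (6.01% higher, 5.9% lower). These 5 were Prc1, Mad2l1, Kif1b and Cdc123 on the higher side (9.09%) and Mcm3 on the lower (2.27%). Over both directions neither share of the members exceeded that of all genes in this fit, though the share at an unadjusted p under 0.05 did under some alternatives given at the end. On the higher side the shares were 4.55% and 9.09%, beside 4.28% and 6.01% of all genes. These rest on 2 and 4 genes, among them Prc1, which was added by name, so nothing is read from them. Of the members, 19 lay above 0 and 25 below, with a median difference of -0.04, beside 45.3% above and 54.7% below for all genes, whose median was -0.03. With arrays scaled to one spread the members split into 22 and 22. The 95% interval extended 0.67 to each side of the difference for the median member, or 1.59-fold, so for such a member a smaller difference was not detectable with 3 arrays a group, even before adjustment.

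**Figure D2:**
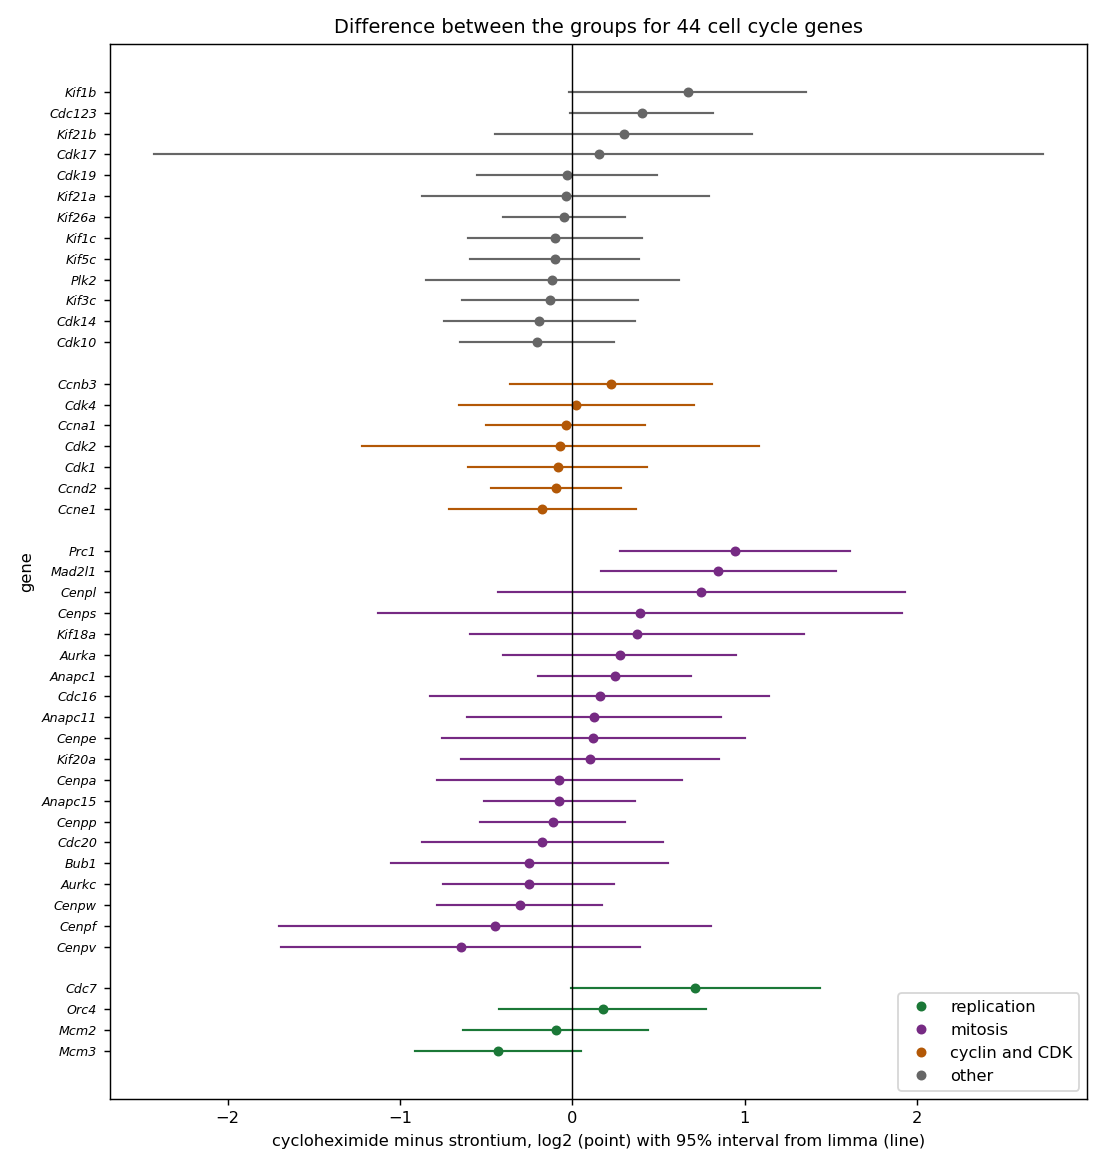
Difference between groups for each of the 44 genes on the log2 scale (points, cycloheximide minus strontium, 3 arrays each) with the unadjusted 95% interval from limma (lines), coloured by class. The intervals of Prc1 and Mad2l1 lie above 0 and those of the other 42 genes include 0.

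Among replication genes, both measured MCM subunits had a difference between groups below 0, and neither passed the test. Mcm2, part of the helicase ring, was at -0.39, -0.07 and -0.58 on the cycloheximide arrays and at -0.25, -0.51 and 0.02 on the strontium arrays. The groups overlapped fully, with a difference of -0.10 (SE 0.22, adjusted p = 0.931). The probes of Mcm2 went opposite ways between the groups, at -0.27 and 0.07, with mean ratios of 0.11 and -0.70. Mcm3, another ring subunit, was at 0.37, 0.38 and 0.00 after cycloheximide and at 0.82, 0.79 and 0.44 after strontium. All strontium arrays lay above all cycloheximide arrays, but array 3 of each group was the lowest of its group and the gap between groups was narrow. The difference was -0.43 (SE 0.20) with an adjusted p of 0.790. The probes of Mcm3 differed by -0.73 and -0.14. The probe with the larger size, whose groups overlapped, is among the 1048 probes with the lowest numbers on the array. Of those, 11.3% were lower after cycloheximide at an unadjusted p under 0.05, against 1.87% of the other 20873 probes. With these probes left out, an alternative added after seeing the data, Mcm3 differed by -0.14. The part of the array position in the result was not tested.

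Cdc7, the kinase that fires origins, had the largest difference of the class and showed how much the probe matters. Its gene average was at -0.96, -0.76 and -0.50 after cycloheximide and at -0.90, -1.56 and -1.91 after strontium, so array 1 of strontium lay among the cycloheximide arrays. The difference was 0.71 (SE 0.30), with an adjusted p of 0.740. One probe was at -2.57, -2.13 and -2.40 after cycloheximide and at -3.02, -3.95 and -4.73 after strontium. Its groups did not overlap, and it differed by 1.53 (SE 0.44), with an adjusted p of 0.793 over all probes. The other probe was at 0.64, 0.60 and 1.40 and at 1.22, 0.82 and 0.92. It overlapped between groups and differed by -0.11. The probes thus lay on opposite sides of the reference, 4.07 apart in mean log2 ratio, and the difference of the gene came from the low probe alone. Which transcripts each probe detects was not analysed here.

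Orc4, a subunit of the origin recognition complex, was at -0.26, -0.53 and -0.72 after cycloheximide and at -0.52, -0.41 and -1.10 after strontium. Both groups spanned similar values, and the difference was 0.18 (SE 0.25, adjusted p = 0.891). Its probes agreed in direction (0.30 and 0.05) but not in ratio: a mean of -1.37 for the lower and 0.19 for the higher.

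**Figure D3:**
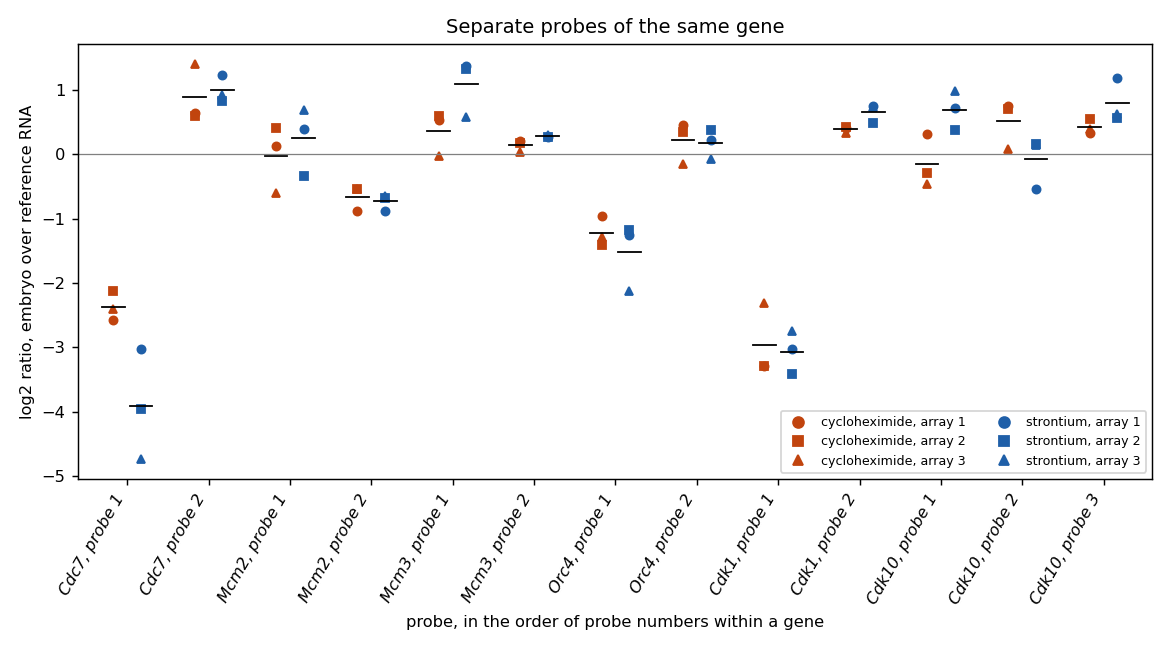
Log2 ratio of embryo over reference for the separate probes of 6 genes on each array (symbols mark array numbers, colours the groups, black lines the group means of 3 arrays). The low probes of Cdc7 and Cdk1 lie far below the other probe of the same gene, and the groups of the low Cdc7 probe do not overlap.

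In mitosis, the genes with the smallest p were both higher after cycloheximide. Prc1 encodes the protein that bundles antiparallel microtubules at the middle of the spindle in anaphase. It was at 0.01, -0.62 and -0.18 after cycloheximide and at -1.56, -1.28 and -0.79 after strontium. Each cycloheximide array lay above each strontium array. The difference was 0.95 (SE 0.27, 95% interval 0.28 to 1.61), with an unadjusted p of 0.0132 and an adjusted p of 0.717 by limma. Mad2l1 encodes the checkpoint protein that holds Cdc20 inactive until chromosomes are attached. It was at -0.90, -1.51 and -0.52 after cycloheximide and at -1.96, -1.88 and -1.64 after strontium, again without overlap. The strontium arrays were tight and the cycloheximide arrays spread over almost 1 log2 unit. The difference was 0.85 (SE 0.28, 95% interval 0.16 to 1.53), with an unadjusted p of 0.0228 and an adjusted p of 0.732. Each of these genes had 1 probe, so no further probe can be set beside it.

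The checkpoint partner of Mad2l1 did not share its direction. Bub1, a kinase that recruits checkpoint proteins to kinetochores, was at -0.71, -1.15 and -1.01 after cycloheximide and at -0.90, -0.03 and -1.19 after strontium. It overlapped between groups, with array 2 of strontium far above the others, and differed by -0.25 (SE 0.33). Like Prc1, the kinesins of the spindle lay above 0. Kif18a, which dampens chromosome movement at the metaphase plate, differed by 0.38 (SE 0.40), and Kif20a, a motor of the midzone and of cytokinesis, by 0.10 (SE 0.31). Neither passed the test (adjusted p = 0.877 and 0.947), and the probe of Kif18a is also among those with the lowest numbers.

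The 8 centromere and kinetochore genes went both ways, 3 above 0 and 5 below. Cenpw, a histone-fold protein of the inner kinetochore, was at 0.68, 0.26 and 0.24 after cycloheximide and at 0.74, 0.52 and 0.85 after strontium. It overlapped through array 1 of cycloheximide and differed by -0.31 (SE 0.20, adjusted p = 0.841). Cenpv was at 1.72, 1.77 and 1.15 and at 3.03, 2.12 and 1.43. Array 3 was the lowest of each group, and the difference was -0.65 (SE 0.43). Cenpl, of the inner kinetochore network, had the third largest mitotic difference, 0.75, but with an SE of 0.49, its strontium arrays lying at -0.26, 1.24 and 0.20. Cenps differed by 0.39 (SE 0.62), Cenpe by 0.12, Cenpa by -0.08 and Cenpp by -0.11. Single arrays weighed on these values: Cenps ran from 0.0347 without array 3 of strontium to 1.06 without array 1 of strontium. Cenpv ran from -0.23 without array 1 of strontium to -1.03 without array 3 of strontium. Cenpl ran from 0.42 without array 1 of strontium to 1.17 without array 2 of strontium.

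Cenpf, a large protein of the outer kinetochore that accumulates before mitosis, followed the array number rather than the group. It was at -0.53, -0.37 and 0.74 after cycloheximide and at -0.19, 0.06 and 1.32 after strontium, so array 3 was the highest of each group. Its difference was -0.45 (SE 0.52). The motor Cenpe was at 2.15, 2.23 and 3.12 and at 1.96, 2.28 and 2.89, again highest on array 3. Outside mitosis, Cdk17 did the opposite, at 0.27, -0.07 and -3.19 and at -0.73, -0.22 and -2.50, and its interval of -2.43 to 2.73 was the widest of the 44. These 3 genes were picked after their values were seen. Array 3 of cycloheximide stood apart over all probes too: it correlated at 0.909 with array 3 of strontium but at 0.762 and 0.810 with its own group, across probes, which are not independent replicates. The spread within arrays, as the interquartile range of log2 ratios, was 1.60 and 1.59 on these arrays and 1.11 to 1.41 on the other 4. Its part in the results was not tested.

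The anaphase-promoting complex, the ubiquitin ligase of anaphase, showed differences between -0.17 and 0.25 over 5 measured genes, 3 above 0 and 2 below. Its activator Cdc20 was at 1.26, 2.05 and 2.12 after cycloheximide and at 2.07, 2.17 and 1.70 after strontium. The groups overlapped, and the difference was -0.17 (SE 0.29). The large scaffold subunit Anapc1 differed by 0.25 (SE 0.18), the RING subunit Anapc11 by 0.13 (SE 0.30) and the subunit Cdc16 by 0.16 (SE 0.40). Anapc15 differed by -0.08 over its 5 probes; 1 of these was at exactly 0 on 3 arrays, which is taken as a ratio that was not set. The Aurora kinases differed by 0.27 (SE 0.28) for Aurka, which acts at spindle poles, and by -0.25 (SE 0.20) for Aurkc, the form of germ cells and early embryos. None of these 7 genes came near the threshold, with adjusted p between 0.857 and 0.942.

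**Figure D4:**
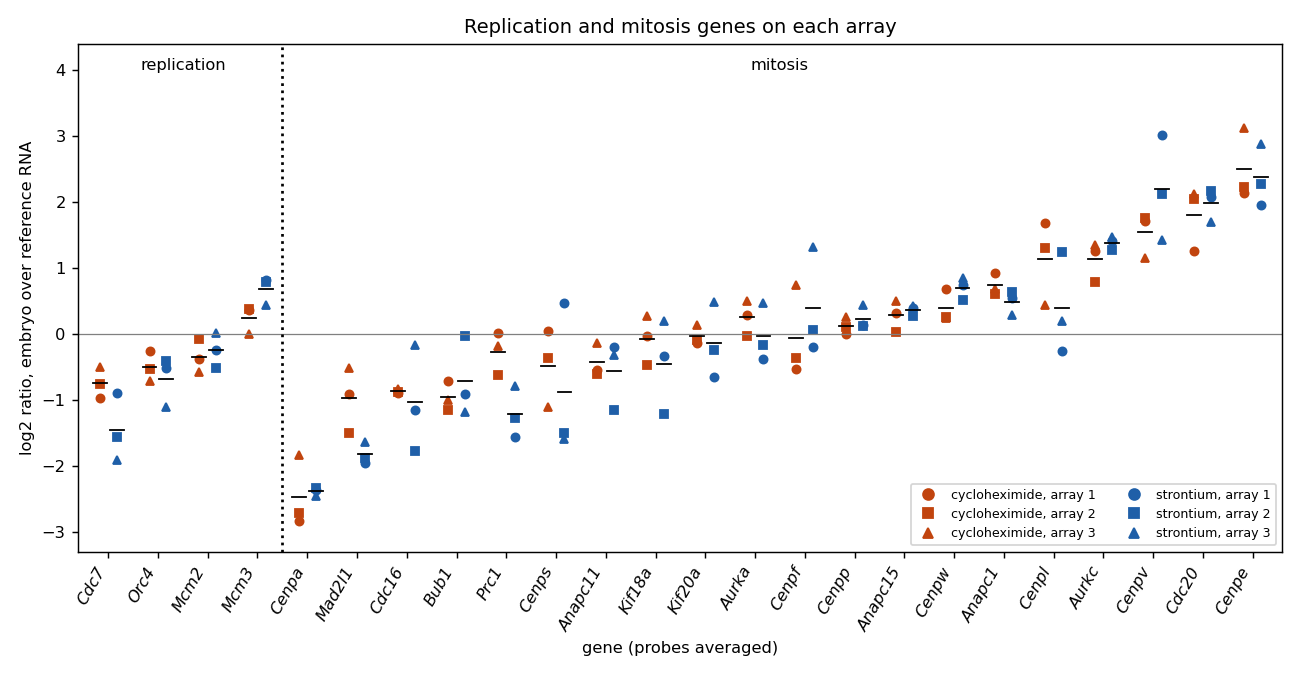
Log2 ratio of embryo over reference on each of the 6 arrays for the 4 replication and 20 mitosis genes, ordered by mean ratio within each class (colours mark the groups, symbols the array numbers, black lines the group means of 3 arrays). Prc1, Mad2l1 and Mcm3 are the genes whose groups do not overlap, and the triangles of array 3 lie at the top of both groups for Cenpf and Cenpe.

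The 7 cyclins and cell cycle kinases differed by between -0.17 and 0.22, 2 above 0 and 5 below, and none passed the test. Ccne1, the cyclin that starts S phase with Cdk2, had the highest ratio of all members. It was at 2.57, 2.98 and 2.98 after cycloheximide and at 3.34, 2.91 and 2.80 after strontium. The groups overlapped and differed by -0.17 (SE 0.22, adjusted p = 0.884). Ccnd2, a cyclin of G1, was at 0.24, 0.41 and 0.44 and at 0.38, 0.43 and 0.56, a difference of -0.10 (SE 0.15). Ccnb3, a B-type cyclin of meiosis, was at 0.16, -0.01 and 0.72 and at 0.04, -0.10 and 0.26, a difference of 0.22 (SE 0.24) that shrank to 0.0107 without array 3 of cycloheximide. Ccna1, the A-type cyclin of the germ line, differed by -0.04 (SE 0.19).

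Of the kinases, Cdk4, the partner of D cyclins, was at -0.02, 0.00 and -0.76 after cycloheximide and at -0.32, 0.03 and -0.54 after strontium, a difference of 0.02 (SE 0.28). Cdk2 varied most within groups, from -0.52 to 1.02 after cycloheximide and from -0.29 to 0.72 after strontium, and differed by -0.07 (SE 0.47). Cdk1, the kinase that drives entry into mitosis, differed by -0.08 (SE 0.21). Its probes stood 3.53 apart in mean ratio, at -3.01 and 0.52, and differed between groups by 0.10 and -0.27. The average of -1.25 therefore describes neither probe. The intervals of Cdk1, Cdk2 and Cdk4 ran from -0.60 to 0.43, from -1.22 to 1.08 and from -0.66 to 0.70, so a difference of the size of that of Prc1 lay outside the interval for Cdk1 and Cdk4 but inside it for Cdk2.

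Among the 13 genes that share a name with the cell cycle but mainly act elsewhere, 4 lay above 0 and 9 below. Kif1b, a kinesin that carries mitochondria and vesicles, was at 0.27, 0.32 and 0.59 after cycloheximide and at -0.76, -0.31 and 0.24 after strontium. The groups did not overlap, though array 3 of strontium nearly reached the lowest cycloheximide array, and the difference was 0.67 (SE 0.28, adjusted p = 0.741). Cdc123, an assembly factor of a translation initiation factor, was at 0.13, 0.09 and -0.07 and at -0.33, -0.18 and -0.55. It too was higher on every cycloheximide array, by 0.40 (SE 0.17, adjusted p = 0.751).

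On the lower side of these genes, Cdk10 was at 0.46, 0.31 and 0.00 after cycloheximide and at 0.45, 0.36 and 0.58 after strontium, a difference of -0.20 (SE 0.18). Its 3 probes disagreed, at -0.84, 0.59 and -0.37; the first is among the probes with the lowest numbers, and without those the gene differed by 0.11. Cdk14 was at -1.20, -1.14 and -0.66 and at -0.83, -1.04 and -0.55, overlapping, with a difference of -0.19 (SE 0.23). The other transport kinesins, Kif1c, Kif3c, Kif5c, Kif21a, Kif21b and Kif26a, differed by between -0.13 and 0.30. Plk2, a Polo kinase of the stress response, differed by -0.12 and Cdk19, a kinase of the Mediator complex, by -0.03. Over all classes, 12 members had several probes, and for 10 of them the probes lay on opposite sides of 0.

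Replication and mitosis were then set side by side. On every array the median ratio of the 4 replication genes lay below that of the 20 mitosis genes. The replication medians were -0.32, -0.30 and -0.54 on the cycloheximide arrays and -0.38, -0.46 and -0.54 on the strontium arrays. The mitosis medians were 0.03, -0.06 and 0.26, and -0.19, 0.01 and 0.35. Both classes thus followed the array number more than the group: mitosis was highest and replication lowest on array 3 of each group. The mean gap between the medians (replication minus mitosis) was -0.46 ± 0.30 after cycloheximide and -0.52 ± 0.36 after strontium (SD, n = 3 arrays each), so the gap differed between groups by less than its spread. With 4 genes the replication median is fragile, and the median ratio of 16 further replication genes was 0.24 against -0.05 for 21 further mitosis genes, the opposite order.

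The median difference between groups was 0.04 for replication and 0.11 for mitosis, beside -0.03 for all genes. Replication minus mitosis was -0.07, and its sign did not hold. It was 0.25 without array 3 of cycloheximide, 0.14 without array 1 of strontium, 0.07 without array 2 of strontium, 0.08 with array weights, 0.12 without the spindle motors and 0.0033 after quantile normalization. Without array 3 of cycloheximide the median difference was 0.15 for replication and -0.10 for mitosis. No direction of 1 class against the other can be given from these arrays.

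**Figure D5:**
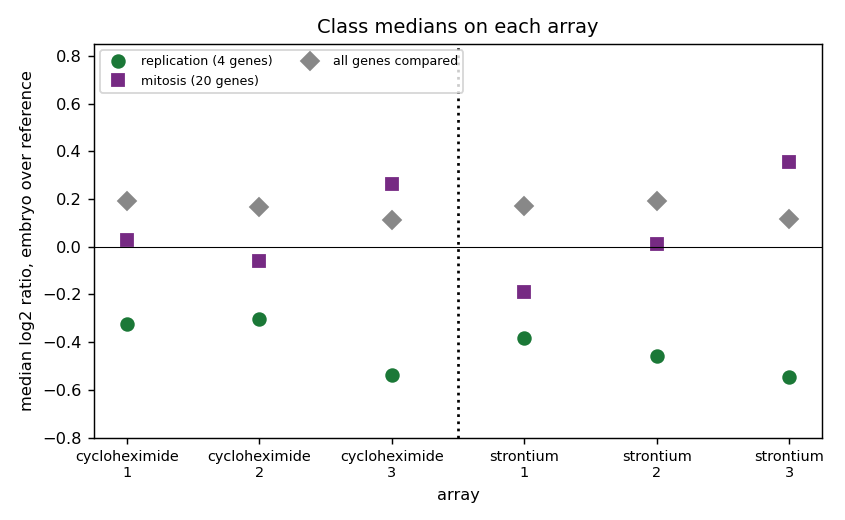
Median log2 ratio of embryo over reference on each array for 4 replication genes (circles), 20 mitosis genes (squares) and all 4742 genes compared (diamonds), with the groups parted by a dotted line. Replication lies below mitosis on all 6 arrays, and the distance is widest on array 3 of each group.

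Against the reference RNA, which comes from mouse cell lines, the members scattered on both sides. Of the 44, 13 lay above the reference on all 6 arrays (29.5%, beside 36% of all genes) and 13 below on all 6 (29.5%, beside 24.6%). On the high side, after Ccne1, came the kinetochore motor Cenpe with a mean of 2.44 over the 6 arrays and Cdc20 with 1.90. Aurkc lay at 1.26. On the low side lay Plk2 at -2.46, and Cenpa, the histone variant that marks centromeres, at -2.43. Cenpa was at -2.84, -2.72 and -1.84 after cycloheximide and at -2.37, -2.34 and -2.46 after strontium, and so overlapped between groups. Members of 1 process thus stood at opposite ends of the ratio. The embryo side went through 2 rounds of amplification and the reference side through 1, with the same dyes on all arrays, so effects of either on a probe cannot be told apart from its ratio.

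Other genes of the same pathways were taken from textbook lists. Of 47 further replication genes 16 were measured, of 50 further mitosis genes 21, and of 37 cell cycle regulators 7. By limma 0 of these 44 passed in either direction over all genes. At an unadjusted p under 0.05 stood 1, Cdkn1a (2.27%, beside 6.64% of all genes). The groups did not overlap for 4 (9.09%, beside 11.9%): Clspn, Cdkn1a, Espl1, which encodes separase (0.37), and the condensin subunit Ncapd3 (0.32). Of the replication genes 11 lay above 0 and 5 below, with a median of 0.17. Of all genes 45.3% lay above 0, with a median of -0.03. The list was chosen with earlier results of these data known, so nothing is read from its count. Ticrr, which helps to fire origins, differed by 0.75 (SE 0.34), and Top1, the topoisomerase that relaxes DNA ahead of the fork, by 0.72 (SE 0.35). Clspn, an adaptor of the replication checkpoint, differed by -0.42 (SE 0.23), and Rfc5, of the clamp loader, by -0.61 (SE 0.36).

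Of the mitosis genes 10 lay above 0 and 11 below, with a median of -0.01. Rad21, of the cohesin ring, differed by 0.72 (SE 0.38) and the centrosome kinase Nek2 by 1.03 (SE 0.58). Incenp, the scaffold of the chromosomal passenger complex, differed by -0.41 (SE 0.25) and the kinetochore scaffold Knl1 by -0.37 (SE 0.24). Among regulators, Cdkn1a, which inhibits Cdk2 complexes, was at -2.86, -2.84 and -2.32 after cycloheximide and at -3.07, -3.64 and -3.25 after strontium. It did not overlap and differed by 0.65 (SE 0.24, adjusted p = 0.740). Wee1, the kinase that restrains Cdk1, differed by 1.01 (SE 0.51), while Chek2 and Rb1 differed by -0.06 and -0.09.

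The tissue was checked on marker genes. Of 7 measured genes of the preimplantation embryo, 6 lay above the reference on all 6 arrays and Krt18 on some, with Tdgf1 at the largest ratio the table can hold on all 6 and Dppa3 on 1. All 3 measured fibroblast genes lay below on all 6. With the opposite direction of the ratio, these 6 embryo genes would lie below the cell-line reference and the 3 fibroblast genes above it. Tdgf1 can show no difference at that limit; the 6 other embryo genes differed by between -0.49 and 0.16, and the fibroblast genes by a median of -0.02. Of cumulus and granulosa markers only Cyp11a1 was measured, at a difference of 0.85 (SE 0.49), so a part of these cells in the results was not tested. Oocyte markers were Zp2, with a mean of 1.73 over the arrays, and Bmp15, with 0.32. Of blood markers, Ptprc lay below the reference and S100a8 above it on all 6 arrays.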

How the data were processed

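The authors deposited 1 table of log10 ratios of the dye channels for 22132 probes on 6 arrays, made with Agilent Feature Extraction per the submitters' processing notes; its version and its background and dye settings are not stated there. Deposited values are limited to -2 and 2. Per the labels' protocols, embryo RNA was in Cy3 and reference RNA in Cy5. Values were turned in sign and converted to log2. The 211 probes at 0 on all arrays were dropped; other zeros stayed as 0. Probes with 1 gene symbol in the platform annotation were averaged per gene, and all 44 member symbols matched RefSeq by gene ID. limma 3.58.1 in R 4.3.3 (lmFit, eBayes) was fitted to all genes and, separately, all probes, with Benjamini-Hochberg adjustment over all of them. It was also run on simulated gene values with independent noise and no effect of single arrays, so that run does not cover such effects. The number of arrays limits the precision, and signal over background was not analysed here.

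The members, role classes and lists were chosen with earlier results of these data known. Every member may be named. Values per array are given for the 2 smallest p in each direction per class, the MCM subunits, Prc1 and the 2 highest and lowest ratios of replication and mitosis, and for some others to show their pattern; of each further list, the 2 smallest p in each direction are named with their difference. Alternatives covered zeros, dropped probes, the ratio limit, centring, quantile and scale normalization, array weights, the replicate block, probe averaging, single arrays and class membership.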

Additional observations from a re-analysis of the deposited data

How the results depend on the processing

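Leaving out the probes with the lowest numbers was chosen after seeing the data. Among member genes and member probes 0 passed under each alternative that was run; the smallest adjusted p of a member gene was 0.185, for Prc1 with array weights. At an unadjusted p under 0.05, members numbered 1 to 3 higher and 0 to 2 lower when 1 array was left out. That was 2.27% to 11.4% of members, beside 3.56% to 18.8% of all genes. Without array 3 of cycloheximide they were 3 and 1 (9.09%, beside 18.8%), and without array 3 of strontium 3 and 2 (11.4%, beside 6.31%). With each array centred on its median they were 4 and 0 (9.09%, beside 6.37%), and with quantile normalization 4 and 0 (9.09%, beside 6.56%). With the most variable probe per gene they were 3 and 1 (9.09%, beside 6.41%), and with arrays scaled to one spread 2 and 0 (4.55%, beside 6.07%). With array weights they were 4 and 1 (11.4%), beside 447 and 537 of all genes (20.8%). Of the 62 member probes, 18 (29%) stood at that level with array weights, beside 33% of all probes. Over all genes 0 passed throughout, and over all probes 0 passed except with array weights (359). In that fit of probes array 2 of cycloheximide had a weight of 22.6 and the other arrays 0.156 to 1.03. Those calls therefore lean mostly on 1 array of the cycloheximide group. The replicate block gave 0 calls among all genes and among members, with 491 genes at an unadjusted p under 0.05 against 315 and 6 members (4 higher, 2 lower; 13.6%, beside 10.4% of all genes) against 2; same-numbered arrays correlated in their deviations at 0.06, 0.38 and 0.50, so the numbers were not taken as pairs, and array 1 of cycloheximide went best with array 2 of strontium (0.46). The median difference of replication was -0.11 with the most variable probe per gene and 0.17 with the further lists added, and between -0.0218 and 0.15 when 1 array was left out. Mcm8 and Mcm9 were not measured, so adding them changed nothing. The cause of these shifts was not tested.

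Of 747 alternative values of the 44 members, 50 changed sign, in 26 genes, and 0 passed the threshold; no member with a difference over 0.45 in size changed sign. Without any 1 array 21 members kept their sign, and 15 of these moved by over 1.5 times; Prc1, Mad2l1, Cdc7, Mcm3, Cenpw and Cdc123 moved less. For members that changed sign, the values without 1 array ran from -0.23 to 0.0107 for Cdk1, -0.11 to 0.27 for Cdk4, -0.54 to 0.23 for Cdk2, -0.18 to 0.0888 for Ccna1, -0.21 to 0.59 for Cdc16, -0.17 to 0.31 for Anapc11, -0.18 to 0.0476 for Anapc15, -0.33 to 0.10 for Cdc20, -0.39 to 0.11 for Cenpa, -0.85 to 0.0128 for Cenpf, -0.19 to 0.38 for Cenpe, -0.49 to 0.0879 for Bub1, -0.00559 to 0.70 for Kif18a, -0.15 to 0.41 for Kif20a, -0.28 to 0.19 for Plk2, -0.52 to 1.25 for Cdk17, -0.19 to 0.16 for Cdk19, -0.38 to 0.24 for Kif21a, -0.25 to 0.0144 for Kif1c, -0.24 to 0.0230 for Kif3c, -0.24 to 0.00575 for Kif5c, -0.23 to 0.0336 for Mcm2 and -0.0377 to 0.31 for Orc4. With the most variable probe Cdk1 was at 0.10 and Ccna1 at 0.11, and with the median of probes Anapc15 at 0.0504 and Kif26a at 0.0440. Quantile normalization gave -0.0055 for Cdk4 and 0.0424 for Cdk2. Arrays scaled to one spread gave 0.0686 for Cdk2, 0.25 for Ccne1 and 0.0466 for Cdc20. Array weights gave 0.24 for Cdk2, 0.16 for Plk2, 0.0808 for Cdk19 and 0.0928 for Mcm2. Without the probes of lowest number Cdk10 was at 0.11.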
